A study of Rattus norvegicus with 320 samples.

Results

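The inflammation-linked miR-223-3p, the miR-146 pair and miR-21-5p were measured in 11 organs of Fisher 344 rats from 2 to 104 weeks of age. Rows of the miRNA table were taken by name, as either arm of the hairpins of miR-223, miR-146a, miR-146b and miR-21. This gave 8 of the 616 miRNAs in the table, and 4 of them are the abundant arms on which most results rest: rno-miR-223-3p, rno-miR-146a-5p, rno-miR-146b-5p and rno-miR-21-5p. Small RNA libraries came from spleen, thymus, lung, liver, kidney, adrenal, heart, muscle, brain, testis and uterus of females and males aged 2, 6, 21 and 104 weeks. Each combination of organ, sex and age held 4 rats with no treatment named, and each rat gave 10 organs. Of 320 libraries, 2 were left out, a male brain library of week 6 (replicate 3) and a female spleen library of week 104 (replicate 4). Testis and uterus therefore had 4 libraries at each age and the other organs 8, except brain at week 6 and spleen at week 104 with 7. The rats of different ages are different animals.

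MicroRNAs are short RNAs that pair with messenger RNAs through their seed, the bases near the 5′ end, and lower the output of those messengers. miR-223 is best known from myeloid cells, where it is abundant in granulocytes and limits their activation. miR-146a and miR-146b are induced through NF-κB when Toll-like and cytokine receptors are engaged, and they repress the adaptor proteins IRAK1 and TRAF6, which closes a negative feedback loop. miR-21 is made in very many cell types, is raised by inflammatory and growth signals, represses PDCD4 among others, and is a frequent marker of fibrosis and of regenerating or malignant tissue.

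The mature sequences of the abundant arms are shown first, since the members differ in how far they share a seed. They are written 5′ to 3′ with the seed (bases 2 to 8) in capitals.
rno-miR-223-3p: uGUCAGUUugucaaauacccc
rno-miR-146a-5p: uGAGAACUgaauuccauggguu
rno-miR-146b-5p: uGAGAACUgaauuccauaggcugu
rno-miR-21-5p: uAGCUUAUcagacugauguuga
The miR-146 pair shares the seed GAGAACU, which no other miRNA of the table has, and neither miR-223-3p nor miR-21-5p has a seed mate in the table. Counted from the 5′ end, miR-146a-5p and miR-146b-5p are identical over their first 17 bases and differ within the 22 compared by the substitutions G18A and U21C, with miR-146a given first. miR-146b-5p also carries 2 extra bases at its 3′ end. The opposite arms of the hairpins are rarer and have unrelated seeds, shown here because their share of each hairpin is described further on.
rno-miR-223-5p: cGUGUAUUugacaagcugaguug
rno-miR-146a-3p: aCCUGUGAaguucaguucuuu
rno-miR-146b-3p: cCUAGGGAcucaguucuggug
rno-miR-21-3p: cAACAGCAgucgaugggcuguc
All 8 sequences in the deposited table were identical to RefSeq. In the RefSeq annotation of GRCr8, miR-223-3p lies in Mir223 on the plus strand at chrX:65151450-65151470. miR-146a-5p lies in Mir146a on the minus strand at chr10:28350053-28350074, and miR-146b-5p in Mir146b on the plus strand at chr1:255144874-255144897. miR-21-5p lies in Mir21 on the minus strand at chr10:71902653-71902674.

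Levels are given as CPM, in which the counts of each library over the 616 miRNAs are scaled to 1000000. Library totals ran from 315550 to 10571766 counts with a median of 2848155.5, and liver was the shallowest organ. The labelled organs held their defining miRNAs: mean CPM of hepatocyte miR-122-5p was 29704 in liver and at most 122 elsewhere, and 3 male germ cell miRNAs together had 80758 CPM in testis against at most 4485 elsewhere. The 4 white blood cell markers miR-142-3p, miR-142-5p, miR-150-5p and miR-155-5p summed to 50712 CPM in spleen, 40511 in thymus and 4913 in lung, the next organ. By the study's account the RNA of week-2 spleens was of low integrity, which moves with every comparison of week-2 spleen below, and its part in them was not tested. Every sample is a piece of whole organ, so that more cells of a type and more of a miRNA per cell cannot be told apart.

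Members of the group were unevenly spread over the organs. miR-223-3p, the myeloid miRNA, was highest in spleen with 729 ± 229 CPM (SD, n = 31, range 379 to 1467) and lowest in brain with 13.2 ± 4.26 CPM (n = 31, range 5.81 to 25.6), a 55.3-fold ratio of means. Lung came next to spleen with 222 ± 92.7 CPM, then uterus with 137 ± 122 CPM and thymus with 134 ± 54.4 CPM. Liver, heart and adrenal lay between 77.5 and 85.0 CPM, and testis, kidney and muscle between 40.7 and 47.3 CPM. No brain library reached the lowest spleen library, and the wide SD in uterus goes with the ages described below.

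miR-146a-5p was led by spleen with 5421 ± 2330 CPM (range 1860 to 13478) and thymus with 4327 ± 3136 CPM (range 1046 to 13793). Lung had 2204 ± 854 CPM, kidney 1630 ± 802 and heart 1600 ± 695. The low end was brain with 469 CPM (range 138 to 1063) and muscle with 332 ± 217 CPM. The order of the other member of the seed family was different. miR-146b-5p was highest in lung with 4894 ± 2121 CPM (range 2105 to 10644), followed by brain with 3293 ± 1563 CPM, uterus with 1916 ± 1612 and spleen with 1781 ± 927. Kidney, muscle and liver were lowest with 363, 354 and 183 CPM. By mean CPM, brain was thus the second highest organ for miR-146b-5p and the second lowest for miR-146a-5p.

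miR-21-5p was among the most abundant miRNAs of several organs. Liver had 39582 ± 16366 CPM (n = 32, range 13160 to 67945), which is 3.96% of all counts, and spleen had 32172 ± 12570 CPM or 3.22%. Uterus and thymus followed with 14187 ± 7457 and 14050 ± 3400 CPM. Muscle with 2308 ± 365 CPM and brain with 1825 ± 313 CPM closed the order. By mean CPM it ranked 7 of 616 miRNAs in liver, 8 in uterus and 11 in spleen, and 59 in brain. Within organ, the abundance rank of miR-223-3p ran from 76 in spleen to 363 in brain.

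**Figure D1:**
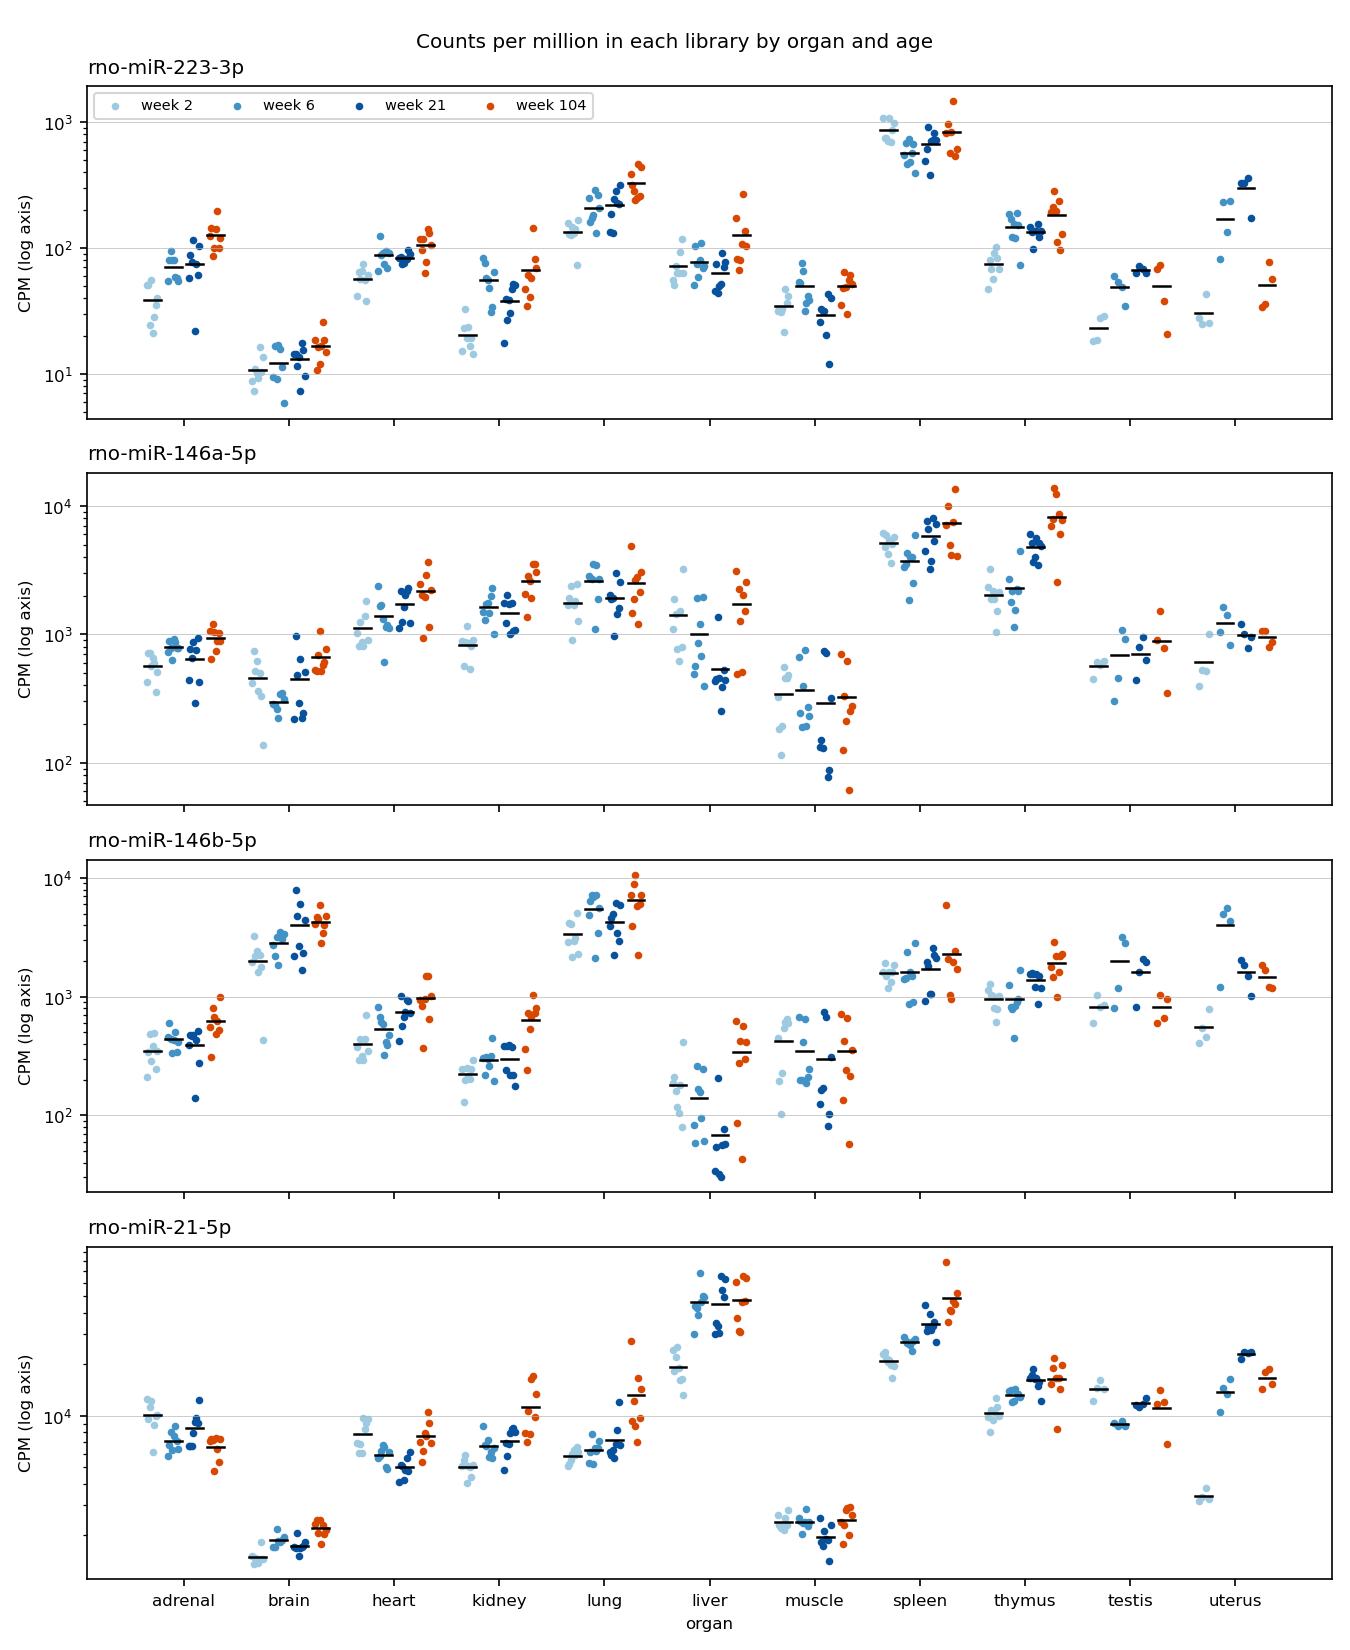
Level of the 4 members in every library, as CPM on a log axis, by organ and age, with a point for each library and a bar for the mean of each organ and age. By mean CPM over all ages, miR-223-3p and miR-146a-5p are highest in spleen, miR-146b-5p in lung and brain, and miR-21-5p in liver and spleen. Organs next to each other in this order were not all told apart at each age.

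Organs were compared in pairs at each age with edgeR's quasi-likelihood test, scaled by TMM (trimmed mean of M-values, which sets library scaling from the bulk of miRNAs), and called at a fold over 1.5 and a Benjamini-Hochberg adjusted p under 0.05 over all 616 miRNAs. The sexes were pooled in these fits, and organs of the same rats were treated as independent. Contrasts of testis or uterus with a shared organ therefore set a single sex against both. Of 220 organ pairs, miR-223-3p was called in 175, miR-146a-5p in 160, miR-146b-5p in 159 and miR-21-5p in 177. Among all miRNAs 59.0% of such tests were called (61.6% with scaling by library size only), so that the members' shares stood somewhat above a high background. This background counts either direction over all organs. Counts below for a single organ against the others are descriptive and have no share of all miRNAs beside them. The choice of scaling moved the median miRNA of an organ pair by 0.561 log2 units at the median and by up to 2.11, and neighbouring ranks were read under both scalings.

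Spleen exceeded lung in miR-223-3p at all 4 ages under both scalings, by 0.95 to 2.45 log2 units with TMM. Muscle exceeded brain at all 4 ages, by 2.71 to 3.30. Spleen was called above the other organs in 39 of 40 contrasts with TMM and in 40 with library size, and the exception was uterus at week 21, where the difference was −0.22 ± 0.23 (log2, SE, edgeR adjusted p = 0.455; 1.17 with library size). Between these ends the order was loose: kidney against muscle was called at no age with TMM and at 1 with library size, and heart against adrenal at 1 age, in the direction opposite to the CPM order.

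For miR-146a-5p, spleen and thymus did not separate at any age with TMM, and spleen was higher at 2 ages with library size. Thymus exceeded lung at 3 of 4 ages with TMM and at 2 with library size. Muscle had the lowest CPM, but with TMM the fitted level of brain was below each other organ in 40 of 40 contrasts, 37 of them called (27 with library size), 2 of these against muscle, while library size put brain above muscle at 1 age. Lung exceeded brain in miR-146b-5p at 4 of 4 ages with TMM and at 2 with library size, and thymus exceeded heart at 4 of 4 ages with both. Lung was called above the other organs in 37 of 40 contrasts with either scaling. With TMM its lowest difference was −0.56 ± 0.35, with uterus at week 6 (edgeR adjusted p = 0.207). Brain was called above uterus in miR-146b-5p at 0 ages and below it at 1 with TMM, and above it at 3 with library size. Liver was called below the other organs in miR-146b-5p in 39 of 40 contrasts with TMM and 38 with library size. For miR-21-5p, liver was called above the other organs in 36 of 40 contrasts with either scaling. The smallest difference, with uterus at week 104, was 0.22 ± 0.25 (edgeR adjusted p = 0.525), and with library size liver lay −0.11 from spleen at week 2 (edgeR adjusted p = 0.404). Liver exceeded spleen at 3 ages with TMM and at 1 with library size. Heart exceeded muscle in miR-21-5p at all 4 ages with both scalings.

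The ratio of miR-146a-5p to miR-146b-5p within a library does not depend on scaling and set the organs far apart. As log2 of the ratio of counts (0.5 added to each), it was 2.83 ± 0.47 in liver (SD, n = 32), 2.19 ± 0.33 in kidney, 1.62 ± 0.47 in spleen, 1.52 ± 0.49 in thymus and 1.29 ± 0.22 in heart. Adrenal had 0.73 ± 0.29 and muscle −0.08 ± 0.22. Uterus with −0.69 ± 0.77, testis with −0.81 ± 0.75, lung with −1.12 ± 0.35 and brain with −2.79 ± 0.51 (n = 31) held more miR-146b than miR-146a reads. Liver libraries, at 1.59 or more, and brain libraries, at −1.62 or less, did not overlap. This is a ratio of reads, which equals a ratio of molecules only if both sequences are captured alike, and reads too short to reach base 18 fit both. Alignment allowed less than 2 mismatches, so that reads ending before base 21 could also align to both.

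With age the ratio changed in 3 organs by an exact permutation test of week 104 against week 2 (two-sided, adjusted over 11 organs). In thymus it rose from 1.05 ± 0.18 to 2.02 ± 0.44 (n = 8 each, exact permutation adjusted p = 0.000855), passing 1.23 at week 6 and 1.79 at week 21. In brain it fell from −2.10 ± 0.23 to −2.71 ± 0.25 (exact permutation adjusted p = 0.000855), with the lowest means at weeks 6 and 21, −3.25 and −3.18. In heart it fell from 1.47 ± 0.08 to 1.16 ± 0.21 (exact permutation adjusted p = 0.00171). In the uterus every week-104 library lay below every week-2 library, with means of 0.11 ± 0.20 and −0.63 ± 0.15 (n = 4 each), and the exact permutation p of 0.0286 is the smallest that 4 against 4 allows, 0.0786 once adjusted. The remaining 7 organs had adjusted p values from 0.118 to 0.770.

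**Figure D2:**
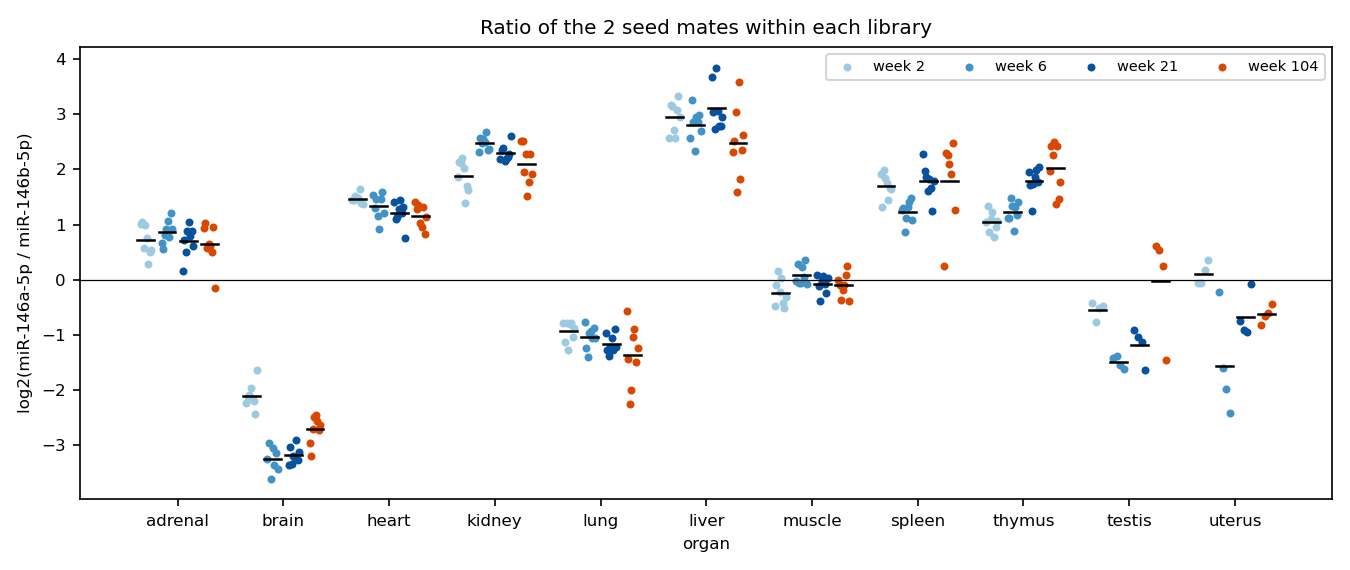
Log2 ratio of miR-146a-5p to miR-146b-5p CPM in each library by organ and age, with a bar for each mean. Points above 0 hold more miR-146a reads. Liver and kidney sit above and brain below 0 at every age, and thymus climbs from 1.05 at week 2 to 2.02 at week 104.

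Age was tested organ by organ in the same way, averaged over the sexes. From week 2 to week 104, miR-223-3p rose in 10 of 11 organs, miR-146a-5p in 9, miR-146b-5p in 10 and miR-21-5p in 8, and none fell. Of all tests of a miRNA in an organ, 18.8% rose and 25.9% fell. The scaling mattered here: with library size only, 10.4% rose and 36.3% fell, and the members rose in 8, 4, 7 and 6 organs, while miR-21-5p fell in adrenal. The same organ rose under both scalings for miR-223-3p in 8 cases, for miR-146a-5p in 4, for miR-146b-5p in 7 and for miR-21-5p in 5. The median change over all miRNAs and organs was −0.10 log2 with TMM and −0.52 with library size, and the gap between the scalings was widest in testis (−1.53), uterus (−0.91) and muscle (−0.90).

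miR-223-3p in the adrenal ran from 21.0 to 56.0 CPM at week 2 (median 37.5) and from 86.2 to 198 CPM at week 104 (median 122). The 8 old adrenals were all above the 8 youngest, and the log2 change was 2.18 ± 0.17 (SE, edgeR adjusted p = 1.29e-12; 1.74 with library size). Kidney had 14.3 to 32.5 CPM at week 2 (median 19.2) and 34.2 to 144 CPM at week 104 (median 59.4), again with no overlap and a change of 1.85 ± 0.15 (1.64 with library size). Lung went from a median of 136 CPM (range 72.7 to 167) to 301 CPM (range 241 to 462), also without overlap, by 1.52 ± 0.15 (1.30). Heart, liver, brain and thymus rose by 1.45, 1.06, 1.03 and 0.95 (0.89, 0.80, 0.62 and 1.27 with library size). Spleen, the richest organ, gave 0.23 ± 0.21 (edgeR adjusted p = 0.431), −0.07 with library size, with medians of 808 CPM at week 2, where RNA integrity was low, and 816 CPM at week 104. Muscle rose by 1.45 with TMM, and its 0.53 with library size missed the fold threshold. Between weeks 2 and 6 alone miR-223-3p rose in 8 organs with TMM, 7 of them under both scalings, where 12.0% of all tests rose (7.20% with library size).

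Both members of the miR-146 pair rose under both scalings in kidney, heart, adrenal and thymus. In kidney, miR-146a-5p had 534 to 1163 CPM at week 2 (median 863) and 1359 to 3533 CPM at week 104 (median 2731), with no overlap, a change of 1.82 ± 0.21 (edgeR adjusted p = 2.80e-09; 1.65 with library size). miR-146b-5p in kidney went from a median of 229 CPM (range 129 to 293) to 699 CPM (range 239 to 1035), and 7 of 8 old kidneys were above the week-2 maximum (1.63 ± 0.24, 1.47 with library size). Heart rose by 1.52 ± 0.23 in miR-146a-5p and by 1.81 ± 0.23 in miR-146b-5p (0.96 and 1.25). Adrenal rose by 1.09 ± 0.21 and 1.21 ± 0.26 (0.72 and 0.83).

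In thymus miR-146a-5p went from 1046 to 3216 CPM at week 2 (median 2011) to 2566 to 13793 CPM at week 104 (median 7850), and 7 of 8 old libraries were above the week-2 maximum. The change was 1.65 ± 0.23 with TMM (edgeR adjusted p = 1.07e-07) and 2.01 with library size, and the step from week 6 to week 21 alone was 1.16 ± 0.23. miR-146b-5p in thymus rose by 0.69 ± 0.21 (1.02 with library size), a call lost without replicate 3 (0.44). In the same libraries the summed white blood cell markers were lower at the later age, from 36745 to 57326 CPM at week 2 down to 11598 to 29628 CPM at week 104. Of these markers only miR-142-3p and miR-142-5p were called down, at −2.67 and −1.53 with TMM (−2.36 and −1.19 with library size). miR-155-5p was not called (−0.35 and −0.02), and miR-150-5p gave 0.46 with TMM and a called rise of 0.78 with library size.

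In brain miR-146b-5p rose by 1.56 ± 0.29 (1.14 with library size), from a median of 2086 CPM (range 427 to 3233) to 4283 CPM (range 2837 to 5940). miR-146a-5p in brain rose by 1.00 ± 0.27 with TMM, a call lost with library size (0.59) and without replicate 4 (0.70). By the study's account the female week-104 brain library of replicate 4 had a far smaller share of miRNA reads than brain libraries on average. It was kept here. Lung gave 1.17 ± 0.29 for miR-146b-5p (0.93 with library size) and 0.72 ± 0.27 for miR-146a-5p, the latter lost with library size (0.50) and without replicate 1 (0.45) or replicate 4 (0.47). Spleen, with low-integrity RNA at week 2, was called for both with TMM at 0.78 ± 0.27 and 0.87 ± 0.33, and neither call held with library size (0.52 and 0.55), with all 320 libraries (0.72 and 0.78) or without replicate 2 (0.58 and 1.01). The call of miR-146b-5p was also lost without replicate 1 (0.48). A female week-104 spleen library, replicate 1, had 5918 CPM of miR-146b-5p, while the other 6 lay between 962 and 2407 CPM. In liver miR-146b-5p rose by 1.16 ± 0.43 with TMM (adjusted p = 0.0280 in edgeR) and lost the call with library size (0.91) and by DESeq2 (0.99), and miR-146a-5p was not called (0.56 ± 0.39). Muscle was called for neither, at 0.97 ± 0.46 and 0.83 ± 0.45 (0.03 and −0.13 with library size), although both passed with TMM without replicate 2 (1.23 and 1.11).

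miR-21-5p in liver ran from 13160 to 25194 CPM at week 2 (median 18672), from 29875 to 67945 at week 6 (median 45091), from 30040 to 66036 at week 21 (median 42346) and from 30762 to 65368 at week 104 (median 46342). The change was made between weeks 2 and 6, by 1.38 ± 0.16 (edgeR adjusted p = 3.61e-09; 1.26 with library size), and no later step was called. In spleen the medians were higher at each later age, at 20967, 27015, 33256 and 44784 CPM, and the 7 old spleens, at 35539 CPM or more, were all above the week-2 maximum of 23703. Its change from week 2 to week 104 was 1.55 ± 0.16 (1.24 with library size), set against the low-integrity RNA of week 2. Kidney rose by 1.32 ± 0.13 (1.11) and lung by 1.36 ± 0.19 (1.17), both without overlap of the oldest and youngest libraries. In lung and spleen the highest values, 27456 and 79574 CPM, both came from the female replicate 1 of week 104, and that lung library also had 18176 CPM of white blood cell markers, where the other 7 had 4333 to 7733.

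In 5 organs besides testis, which is described next, the call for miR-21-5p depended on the scaling or missed the fold threshold. Adrenal had medians of 10011 CPM at week 2 and 7134 CPM at week 104, a change of −0.21 ± 0.14 with TMM and a called fall of −0.60 with library size (edgeR adjusted p = 0.000312). Heart had 0.54 ± 0.13, under the fold threshold, and −0.04 with library size. Muscle rose by 0.96 ± 0.13 with TMM and gave 0.04 with library size, and brain rose by 0.98 ± 0.09 with TMM and gave 0.56, under the fold threshold, with library size. Thymus had 0.36 ± 0.14 with TMM and a called rise of 0.67 with library size.

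Testis was the organ where the scaling weighed most. miR-21-5p had 12119, 14462, 16188 and 14336 CPM at week 2 and 11778, 14141, 11973 and 6816 CPM at week 104. These overlap, and no week-104 library exceeded the highest of week 2, whereas the TMM change was 1.28 ± 0.25 (edgeR adjusted p = 0.000319) and that with library size −0.35. miR-223-3p had 18.2, 18.4, 28.0 and 28.7 CPM at week 2 and 67.6, 73.3, 37.9 and 20.7 CPM at week 104, and was called under both scalings (2.65 ± 0.29 and 1.09). miR-146a-5p and miR-146b-5p rose by 2.23 ± 0.45 and 1.56 ± 0.44 with TMM and gave 0.66 and −0.03, with no call, with library size. The markers of other testis cells also moved: the 3 male germ cell miRNAs summed to 1311 to 2046 CPM at week 2, 145095 to 166756 CPM at week 21 and 66.9 to 2353 CPM at week 104. The 2 smooth muscle miRNAs, miR-143-3p and miR-145-5p, had 116615 to 124010 CPM at week 2 and 17615 to 58310 CPM at week 104. Their part in the members' values was not tested.

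**Figure D3:**
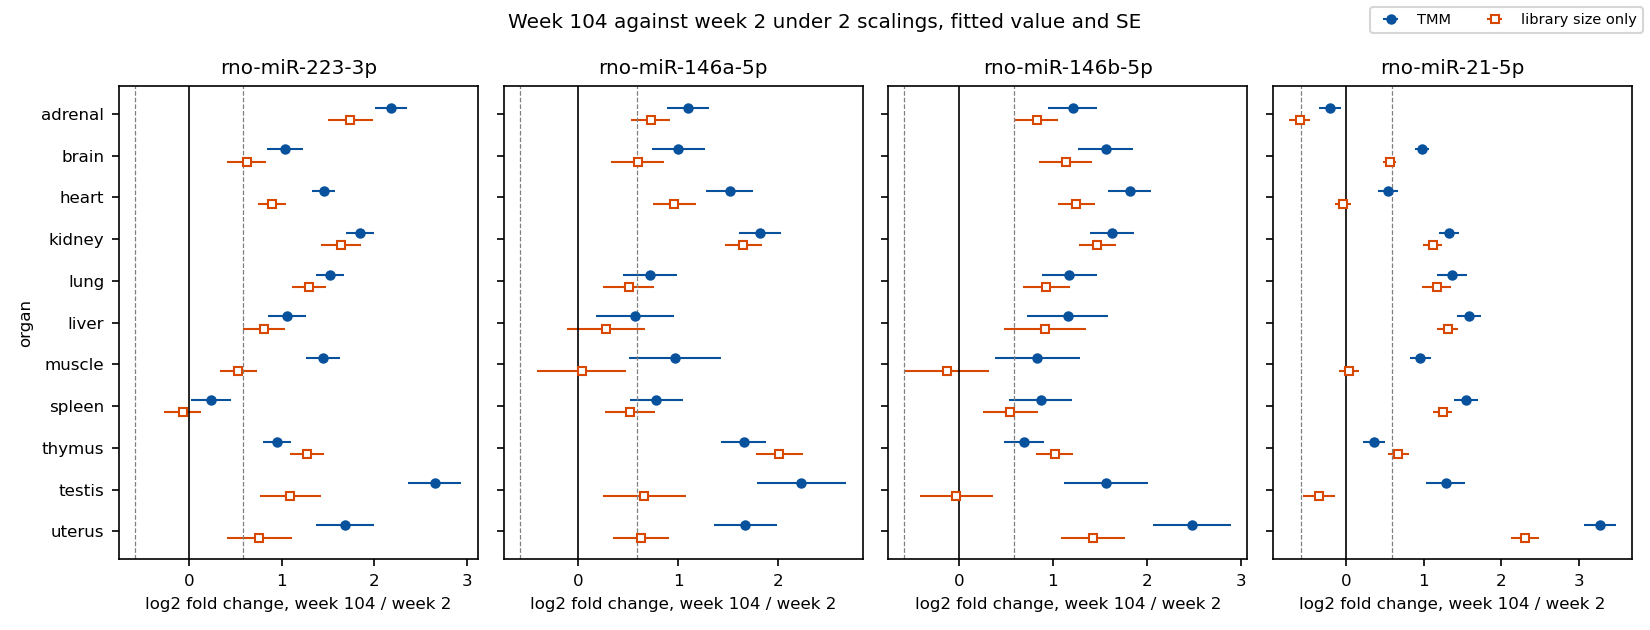
Log2 fold change from week 2 to week 104 (points, with SE) for the 4 members in each organ under TMM scaling and library-size scaling, with dashed lines at a fold of 1.5 in each direction. Values with library size lie to the left except in thymus, and the testis and uterus points shift most, for miR-21-5p in testis from 1.28 to −0.35.

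Step by step over 33 tests each, rises outnumbered falls. With TMM miR-223-3p rose in 13 steps and fell in 1, miR-146a-5p rose in 9 and fell in 0, miR-146b-5p rose in 9 and fell in 1, and miR-21-5p rose in 9 and fell in 1. Among all miRNAs 7.87% of steps rose and 11.2% fell. With library size the counts were 12 and 3, 6 and 0, 5 and 2, and 6 and 1, against 5.23% and 14.7% of all steps. Falling steps of miR-146a-5p numbered 1 with sequencing lane as a covariate. Week-2 organs are still growing, so weeks 104 and 6 were also compared, a contrast chosen after the values were seen. miR-223-3p then rose in 6 organs and fell in 1, miR-146a-5p rose in 6, miR-146b-5p in 5 and miR-21-5p in 6, where 11.1% of all tests rose and 14.0% fell. With library size the rises were 3, 5, 3 and 3 (6.91% of all) and the falls 1, 0, 2 and 0 (19.5%).

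The white blood cell markers moved in the same direction in many of these organs. Of 44 tests of the 4 markers, 29 rose and 3 fell from week 2 to week 104 (20 and 4 with library size). Of all tests 18.8% rose and 25.9% fell (10.4% and 36.3% with library size). With TMM the markers had a median change of 1.30 against −0.10 for all miRNAs. Their sum went from 379 to 978 CPM (median 672) to 877 to 2413 CPM (median 1492) in adrenal, from 382 to 808 (median 517) to 1064 to 3086 (median 1760) in kidney, and from 2232 to 3674 (median 3123) to 4333 to 18176 (median 6313) in lung. In spleen the medians of the sum were 40404 and 45320 CPM. The single markers were split in adrenal, kidney and lung, where miR-142-3p, miR-142-5p and miR-155-5p were called up under both scalings. There miR-150-5p was not called, at 0.44, 0.29 and 0.34 with TMM (0.03, 0.07 and 0.10 with library size). All 4 were detected in each organ at each age. Their part in the rises of the members was not tested.

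In the uterus all 4 members rose between weeks 2 and 6 with TMM. miR-223-3p stood at 27.5, 24.9, 42.9 and 25.5 CPM at week 2, at 82.3, 233, 135 and 235 CPM at week 6, at 328, 330, 360 and 172 CPM at week 21, and at 34.1, 35.5, 77.0 and 56.6 CPM at week 104. Every library of weeks 6 and 21 was above every library of weeks 2 and 104, and weeks 2 and 104 overlapped. The rise from week 2 to week 6 was 3.07 ± 0.33 (edgeR adjusted p = 8.33e-07; 2.51 with library size), where 12.2% of uterine miRNAs rose (4.71% with library size). The fall from week 21 to week 104 was −2.10 ± 0.31 (edgeR adjusted p = 6.87e-05; −2.55), where 9.58% of uterine miRNAs fell (16.4% with library size). Over the whole span, week 104 stood 1.68 ± 0.31 above week 2 with TMM, a call lost with library size (0.76).

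Uterine miR-21-5p stood at 3171, 3337, 3784 and 3242 CPM at week 2, at 10569, 14477, 13474 and 16511 CPM at week 6, at 21408, 23477, 23265 and 23586 CPM at week 21, and at 14384, 18120, 18884 and 15305 CPM at week 104. The first 3 ages did not overlap, and every week-104 library lay below those of week 21 and above those of week 2. The fitted difference of week 104 from week 21 was 0.03 ± 0.19 with TMM (edgeR adjusted p = 0.963) and −0.46 with library size. From week 2 to week 104 it rose by 3.26 ± 0.21 (2.30 with library size), the largest change of the 4 abundant members between these ages, and miR-21-3p rose by 3.70 ± 0.30 (2.74). miR-146b-5p in the uterus went from 407, 547, 460 and 788 CPM to 1209, 5008, 5554 and 4367 CPM at week 6, then to 2037, 1865, 1492 and 1006 CPM at week 21 and 1860, 1666, 1212 and 1175 CPM at week 104. The rise from week 2 to week 6 was 3.53 ± 0.44 (2.87 with library size). The drop from week 6 to week 21, −1.53 ± 0.40 (edgeR adjusted p = 0.0200), was lost with lane as a covariate (−0.58, adjusted p = 0.467) and without replicate 2, 3 or 4 (−1.51, −1.12 and −1.35). From week 2 to week 104 miR-146b-5p rose by 2.48 ± 0.42 (1.43 with library size), and miR-146a-5p by 1.67 ± 0.31, a call lost with library size (0.63). miR-146a-5p had week means of 612 ± 271, 1230 ± 371, 984 ± 179 and 945 ± 134 CPM.

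White blood cell markers in the uterus summed to 489 to 1044 CPM at week 2, 745 to 1285 at week 6, 1966 to 2522 at week 21 and 817 to 1585 at week 104. They too were highest at week 21, although at week 6, when miR-223-3p and miR-146b-5p had risen, the range of the sum still overlapped that of week 2. The single markers were split. From week 2 to week 6, miR-142-3p, miR-142-5p and miR-155-5p rose by 2.19, 1.88 and 1.14 with TMM. With library size these were 1.73, 1.33 and 0.58, the last not called. miR-150-5p was called down under both scalings (−0.74 and −1.28). The part of these markers in the members' course was not tested.

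**Figure D4:**
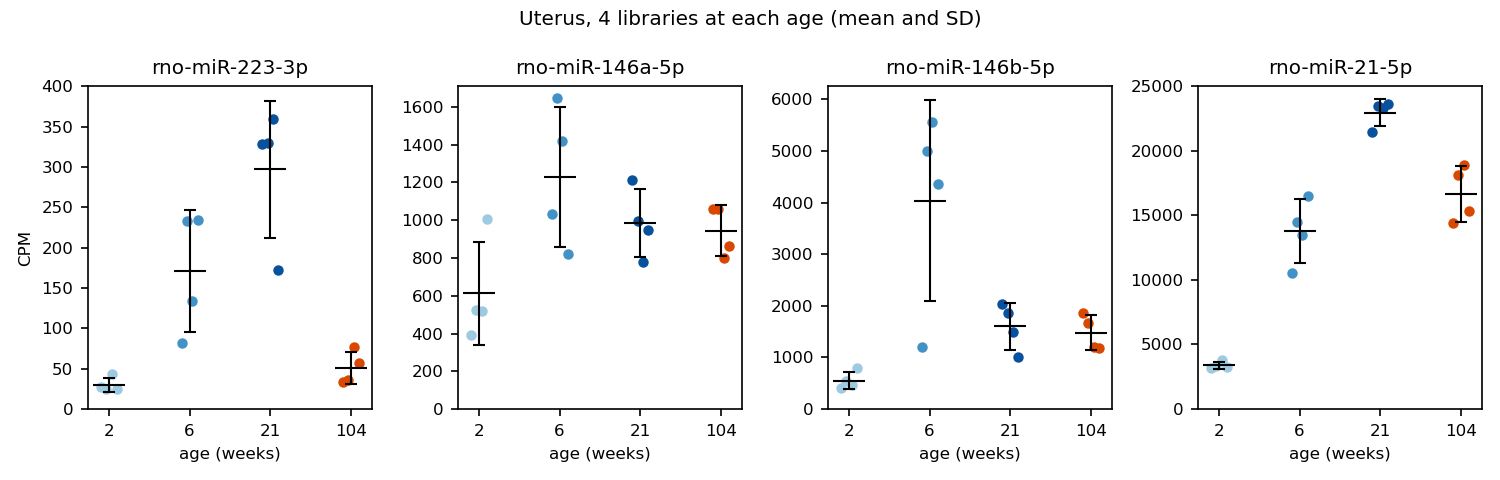
CPM of the 4 members in each of 16 uterus libraries by age, on linear axes from 0, with the mean and SD of each age. miR-223-3p returns at week 104 to 34.1 to 77.0 CPM, next to its week-2 values, while miR-21-5p stays at 14384 CPM or more.

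Differences between the sexes were few. Over 36 contrasts of males with females in the 9 shared organs, miR-21-5p was called in 2 and the other 3 abundant members in 0 by edgeR, where 1.27% of all tests were called (1.31% with library size). In liver at week 21, females had 30040, 35084, 33260 and 30301 CPM of miR-21-5p and males 66036, 54052, 49609 and 62591 CPM, with no overlap. Males were higher by 1.08 ± 0.22 (edgeR adjusted p = 0.00301), also with library size (0.85) and with lane as a covariate (0.74). In adrenal at week 21, females had 6642, 6679, 6695 and 7905 CPM and males 9248, 9690, 9067 and 12310 CPM (0.92 ± 0.20, edgeR adjusted p = 0.00420). That call was lost with library size (0.53), with lane as a covariate (0.74, adjusted p = 0.159) and without replicate 2 (0.87). With library size a call came up in its place in kidney at week 104, with males higher by 0.77 (edgeR adjusted p = 0.0383), which also passed by DESeq2 (0.66) but not with TMM (0.59 ± 0.19, edgeR adjusted p = 0.182).

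For miR-223-3p, miR-146a-5p and miR-146b-5p, 5, 3 and 3 of the 36 contrasts had an unadjusted p under 0.05. In other fits, kidney at week 104 was higher in males for miR-223-3p by DESeq2 (adjusted p = 0.0248), and 1 contrast of miR-146b-5p was called with lane as a covariate. The change from week 2 to week 104 did not differ between the sexes for any of the 4 by edgeR's interaction term in 9 organs (0 called, 1.24% of all tests called and 1.44% with library size, unadjusted p under 0.05 in 3, 0, 0 and 1). Liver miR-21-5p came closest to a call among the alternatives, with 0.90 ± 0.31 (edgeR adjusted p = 0.211) that passed only with lane as a covariate (1.19, adjusted p = 0.00970).

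The opposite arms were minor. As a mean share of both arms of the hairpin, miR-223-5p held 1.31% to 3.21% by organ, miR-21-3p 0.515% to 1.39%, miR-146a-3p 0.111% to 0.236% and miR-146b-3p 0.0554% to 0.142%. miR-21-3p had more than 3 counts in every library used, but miR-223-5p only in 161, miR-146a-3p in 187 and miR-146b-3p in 99, so that these 3 were too shallow in most organs to follow. miR-21-3p rose from week 2 to week 104 in 9 of 11 organs with TMM (6 with library size, with 1 fall), and was called in 178 of 220 organ pairs, where 18.8% of all age tests rose (10.4% with library size) and 59.0% of all organ pairs were called. miR-146a-3p rose in 7 organs, miR-146b-3p in 5 and miR-223-5p in 2, with 1 fall (2, 4 and 1 rises with library size), the last a share near that of all miRNAs.

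Whether the arms kept their proportion was tested in the 17 hairpin and organ combinations with a median of at least 10 counts of the minor arm. In spleen the log2 ratio of miR-223-5p to miR-223-3p fell from −4.30 ± 0.27 at week 2 (n = 8) to −5.57 ± 0.50 at week 104 (n = 7, exact permutation adjusted p = 0.00264). miR-223-5p itself had 44.3 CPM in spleen at week 2 (range 30.9 to 68.8) and 11.5 ± 3.38, 14.4 ± 3.60 and 16.6 ± 4.18 CPM at the later ages, and no later spleen exceeded 23.4 CPM. The low integrity of week-2 spleen RNA moves with this ratio, and its part was not tested. In thymus the ratio of miR-21-3p to miR-21-5p fell by 0.60 (exact permutation adjusted p = 0.0423, n = 8 each), a call lost when any replicate number was left out (adjusted p = 0.0736 to 0.209). The other 15 combinations did not pass.

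The 2 miR-146 miRNAs also varied together between rats of the same group. Each library's log2(CPM + 1) was taken as a deviation from its group mean, and over all libraries used miR-146a-5p and miR-146b-5p correlated with Pearson's r = 0.875 and Spearman's rho = 0.855 (permutation within groups, adjusted p = 0.0001 for both over 10 relations, the smallest that 100000 permutations give). Without the 2 libraries farthest from the median r was 0.866. It ranged from 0.661 to 0.944 within the 8 sequencing lanes and from 0.537 (uterus) to 0.981 within organs, and was 0.859 with lane means removed. Among 189 other miRNAs of at least 100 CPM, miR-146b-5p ranked 1 for miR-146a-5p, ahead of miR-24-3p with 0.658. The libraries share rats and lanes, and reads too short to tell the pair apart could be counted for either, whose part was not tested.

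miR-223-3p shared little of this variation, with r = −0.06 to miR-146a-5p (rho = −0.10, permutation adjusted p = 0.486 and 0.169) and −0.10 to miR-146b-5p (rho = −0.18, adjusted p = 0.247 and 0.0107 by permutation). It correlated weakly with miR-21-5p (r = 0.301, rho = 0.236, permutation adjusted p = 0.0001 and 0.00145, 0.279 without 2 libraries, 0.0705 to 0.607 within lanes, −0.19 to 0.801 within organs). The members also differed in how much rats of a group varied. The within-group SD of log2(CPM + 1) was 0.206 for miR-21-5p, and 2.65% of the 189 miRNAs had a smaller one. It was 0.360 for miR-223-3p, 0.544 for miR-146a-5p and 0.581 for miR-146b-5p, with a median of 0.376. Sequencing lane took 6.19% of that variance for miR-21-5p, 15.5% for miR-223-3p, 21.1% for miR-146a-5p and 19.1% for miR-146b-5p, against a median of 11.9%.

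**Figure D5:**
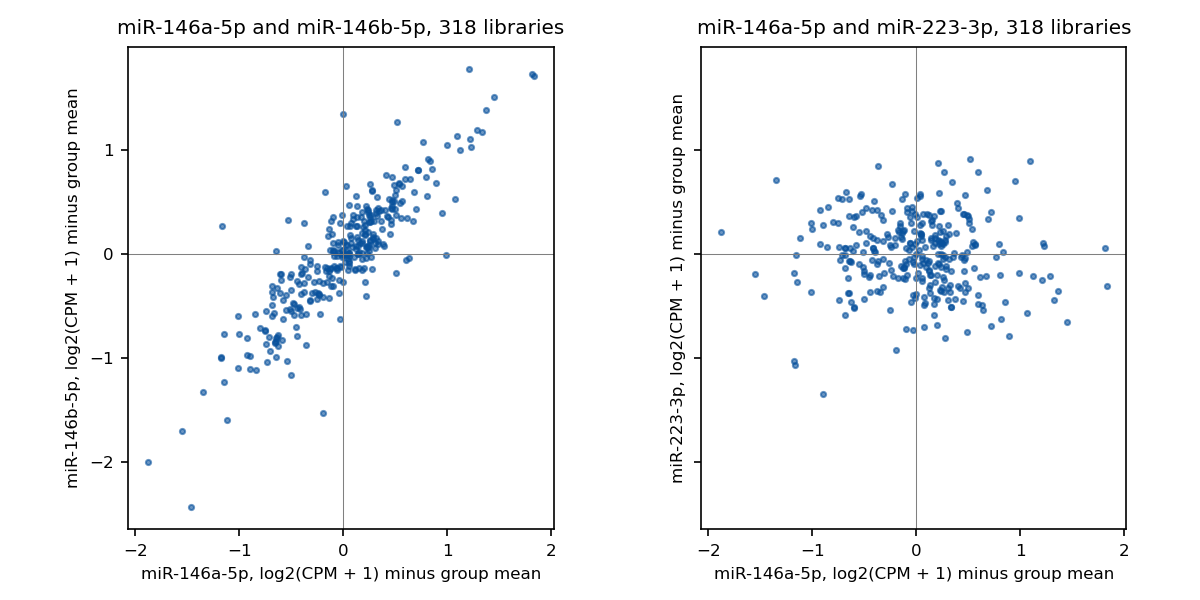
Deviation of each library from the mean of its organ, sex and age group, in log2(CPM + 1), for miR-146b-5p (left) and miR-223-3p (right) against miR-146a-5p. The miR-146 pair falls along a line (r = 0.875), and the other panel shows no slope (r = −0.06).

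Likeness of pattern was described by the Pearson correlation of log2(CPM + 1) over the 44 means of organ and age, among the 459 miRNAs whose mean count reached 10. Nearest to miR-223-3p were miR-147 (0.823), miR-146a-5p (0.792), miR-142-5p (0.790), miR-142-3p (0.771) and miR-27a-5p (0.760). Nearest to miR-146a-5p were miR-142-5p (0.846), miR-155-5p (0.833), miR-142-3p (0.796), miR-223-3p (0.792) and miR-147 (0.769). miR-142 is restricted to blood cells and miR-155 is made by activated lymphocytes and macrophages. miR-146b-5p had other neighbours, miR-221-3p (0.772), miR-222-3p (0.764), miR-221-5p (0.724), miR-34c-3p (0.681) and miR-488-3p (0.663), and its own seed mate reached 0.353. miR-21-5p was nearest to its opposite arm miR-21-3p (0.938), then miR-148a-3p (0.750), miR-148a-5p (0.731), miR-147 (0.705) and miR-339-5p (0.693). The means share rats, lanes and scaling, and carry no test.

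Other miRNAs linked to inflammation, myeloid cells or senescence were read from a list of 17, of which 4 are also white blood cell markers. Over 187 tests from week 2 to week 104, 95 rose and 10 fell with TMM, where 18.8% of all tests rose and 25.9% fell. With library size 60 rose and 23 fell, where 10.4% of all tests rose and 36.3% fell. Their median change was 0.70 with TMM and 0.12 with library size, against −0.10 and −0.52 for all miRNAs. Some of its members are named here after their values were seen. miR-29b-3p, which represses collagens, rose in 11 of 11 organs under both scalings, from 1.57 ± 0.15 in thymus to 5.52 ± 0.26 in testis with TMM. miR-34a-5p, a p53 target tied to senescence, rose in 10 organs (7 with library size), and miR-147, induced by Toll-like receptors in macrophages, in 8 (7). miR-155-5p rose in 8 organs and fell in 1 (6 and 2). miR-9a-5p, also a neuronal miRNA, rose in 1 and fell in 4 (1 and 6).

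The marker lists of other cells are read against the same shares of all tests, 18.8% rising and 25.9% falling with TMM (10.4% and 36.3% with library size). Each list was tested in all 11 organs, including organs that lack the named cell type. The counts describe these miRNAs and do not count cells. With TMM, and with library size in parentheses, red cell miRNAs rose in 23 and fell in 3 of 44 tests (12 and 10), and epithelial miRNAs rose in 15 and fell in 5 of 44 (8 and 7). Endothelial miRNAs rose in 9 and fell in 0 of 22 tests (3 and 1), and smooth muscle miRNAs rose in 8 and fell in 2 of 22 (3 and 3). Mesenchymal miRNAs rose in 5 and fell in 16 of 33 tests (3 and 25), and striated muscle miRNAs rose in 5 and fell in 6 of 33 (2 and 8). Thymocyte miRNAs rose in 1 and fell in 16 of 22 tests (0 and 18), neuronal ones rose in 4 and fell in 5 of 22 (2 and 8), and male germ cell ones rose in 6 and fell in 10 of 33 (4 and 13). The shares of rising tests among neuronal and male germ cell miRNAs lay near that of all miRNAs. Hepatocyte miR-122-5p fell in 7 of 11 organs with either scaling.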

How the data were processed

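Small RNA was sequenced in 320 libraries. Per the submitters' processing notes and the study's methods, the authors trimmed reads with fastp 0.23.2, aligned those of 16 to 35 bases with Bowtie 1.3.1 with less than 2 mismatches to miRBase and other collections, and deposited raw counts per mature miRNA, after removing miRNAs with under 1 count per library on average. Library totals ran from 315550 to 10571766 counts. Every column was matched to its sample by name. Counts were tested with edgeR 4.0.16 (R 4.3.3): organ pairs with 1 fit for each age, and ages, sexes and their interaction with 1 fit for each organ. No miRNA was filtered out. Pseudocounts were 1 CPM for log values and 0.5 counts in ratios. Correlations and permutation tests used Python 3.11.15 with SciPy 1.17.1, and DESeq2 1.42.0, library-size scaling, a lane covariate and leaving out replicates were alternatives. A male brain and a female spleen library were left out, as the study did. The edgeR fit was tested on simulated data for 1 organ, 1 age and 1 sex contrast. The labels do not say whether rats of a group came from separate litters, so p-values measure the spread between these rats. Sequences and GRCr8 coordinates are from RefSeq, in which 551 of the 616 names were found. The members, marker lists and named miRNAs (those of the rule, the 5 nearest in pattern, and list members) were chosen with earlier results of these data known.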

Additional observations from a re-analysis of the deposited data

Results flagged for a closer look

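Within groups of 4 rats, 25 single values of a member stood far from the other 3 of their group by Dixon's ratio test of the gap to the range, among 312 combinations of a member and a group, where chance alone gives about 1 in 20, or 15.6. They came from 22 libraries. A male muscle library of week 6 (replicate 1), a female muscle library of week 21 (replicate 4) and a female liver library of week 21 (replicate 3) stood apart in both miR-146 members.

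For miR-146a-5p these had 757 CPM (the other 3 rats of the group 193 to 270), 736 CPM (130 to 149) and 1370 CPM (434 to 460). For miR-146b-5p they had 642 CPM (186 to 246), 748 CPM (124 to 169) and 207 CPM (32.0 to 54.4). All of these were above their group.

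The other libraries apart in miR-146a-5p were male heart week 6 replicate 1 with 609 CPM (1114 to 1180), male kidney week 21 replicate 2 with 1766 (1002 to 1084) and female lung week 21 replicate 4 with 974 (1897 to 2023). For miR-146b-5p they were female adrenal week 21 replicate 1 with 392 CPM (463 to 474), female kidney week 6 replicate 2 with 217 (300.2 to 307) and female kidney week 21 replicate 2 with 241 (383 to 391). In thymus a male of week 6, replicate 4, had 1686 CPM (835 to 957), and a female of week 21, replicate 4, had 1199 CPM (1540 to 1568).

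For miR-223-3p, female adrenal week 2 replicate 3 had 24.5 CPM (51.0 to 56.0), male adrenal week 6 replicate 1 had 80.8 (54.1 to 58.7) and female liver week 104 replicate 1 had 174 (66.3 to 81.8). That liver library also held 12187 CPM of white blood cell markers, whose part in the value was not tested. Female muscle week 21 replicate 1 had 25.7 CPM (31.5 to 32.6), female spleen week 2 replicate 1 had 1081 (713 to 751) and male spleen week 21 replicate 3 had 821 (705 to 720). In uterus, week 2 replicate 3 had 42.9 CPM (24.9 to 27.5) and week 21 replicate 4 had 172 (328 to 360).

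For miR-21-5p, female adrenal week 21 replicate 4 had 7905 CPM (6642 to 6695), female adrenal week 104 replicate 4 had 4755 (7086 to 7284) and uterus week 21 replicate 1 had 21408 (23265 to 23586).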

How the results depend on the processing

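In these lists values stand in the order miR-223-3p, miR-146a-5p, miR-146b-5p, miR-21-5p. A 4-fold threshold left 83, 67, 68 and 76 organ pairs, 2, 1, 1 and 1 organs rising from week 2 to week 104, 1, 0, 2 and 1 rising steps, 0 falling steps for miR-146b-5p and miR-21-5p, and 0 sex calls for miR-21-5p. With library size miR-146a-5p rose in 4 organs, miR-146b-5p in 5 steps, miR-223-3p and miR-146b-5p fell in 3 and 2 steps, and miR-21-5p fell in 1 organ. With lane as a covariate miR-146a-5p fell in 1 step and miR-21-5p in 0, 1 sex contrast each was called for miR-146b-5p and miR-21-5p, and 1 interaction for miR-21-5p. Falling steps of miR-21-5p were 0 by DESeq2, 0 with a mean count of at least 10 and 3 without a fold threshold, and DESeq2 called 1 sex contrast of miR-223-3p. With week 6 in place of week 2, chosen after seeing the data, miR-223-3p rose in 6 and fell in 1 organ and miR-146b-5p rose in 5.

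Leaving out each replicate number in turn gave 3 to 5 ratio tests past the threshold, 1 arm test each time, 0 to 1 falling steps for miR-146a-5p, miR-146b-5p and miR-21-5p, 5 to 8 rising steps, 0 to 1 interactions and 1 to 2 sex calls for miR-21-5p. Of the 5 nearest miRNAs, organ means kept 3 for miR-146a-5p, miR-146b-5p and miR-21-5p each, and Spearman's rho kept 2 for miR-146b-5p.

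Directions turned with library size for miR-146b-5p in muscle (−0.13) and testis (−0.026), miR-21-5p in heart (−0.036) and testis (−0.35) and miR-223-3p in spleen (−0.073), which also turned with lane (−0.0082) and without replicate 2 (−0.10, 0.46 at most over replicates). Over left-out replicates, the change in arm ratio of miR-146b ran from −0.60 to 0.21 in brain and from −0.17 to 0.77 in lung, and the change in the miR-146 ratio from −0.18 to 0.071 in adrenal and from −0.13 to 0.39 in spleen. The causes were not tested beyond the smaller samples.

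The labels do not say whether a replicate number marks the same rat in different organs, and samples were not paired by it. Deviations of libraries with the same number correlated by 0.00834 on average over organs, against −0.00267 for other numbers. Such averages between different organs cannot settle whether equal numbers mark the same rat. A replicate block left 1 arm test and the organs rising at 10, 9, 10 and 8. Low counts limit the minor arms: miR-146b-3p had a median of 2 counts.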

Other observations

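The 2 libraries left out of all comparisons had the following member levels. The male brain library of week 6, replicate 3, had 79.0 CPM of miR-223-3p and 5689 CPM of miR-21-5p, above the highest of the 31 brain libraries used (25.6 and 2457 CPM). Its 879 CPM of miR-146a-5p and 2113 CPM of miR-146b-5p were within the range of the other brain libraries. The female spleen library of week 104, replicate 4, had 320 CPM of miR-223-3p and 15074 CPM of miR-21-5p, below the lowest of the 31 spleen libraries used (379 and 16663 CPM). Its 2898 CPM of miR-146a-5p and 1097 CPM of miR-146b-5p were within their range.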
